A study of Arabidopsis thaliana with 28 samples.

Results

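Transcripts of 5 stress genes of Arabidopsis thaliana, STZ (AT1G27730), CML38 (AT1G76650), AT4G27280, AT4G29780 and AT1G19020, were followed in shoots and roots after a short pulse of UV-B light. Each gene had 1 probe set on the array, so the results rest on 5 of the 13513 probe sets that name 1 gene, among 22746 analysed. The genes had been picked from the same arrays, on falls from 0.25 h to 12 or 24 h and on 0.5 or 1 h against 24 h. Their fall between those times is therefore described without a test. Tests are given only for the steps from 0.5 to 1 h, 1 to 3 h and 3 to 6 h, which were not themselves used in the choice. These steps still share the 0.5 and 1 h arrays with the choice or lie inside the chosen fall. Lower calls, and their counts against all probe sets, thus follow in part from the choice. Higher calls at 1 h against 0.5 h may do so too, since a high value at 1 h could bring a gene in. The same holds for the differences between tissues in these steps, and for the counts of both against all probe sets.

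STZ, also called ZAT10, encodes a C2H2 zinc finger protein with an EAR repression motif, and it switches on within minutes of many stresses. CML38 encodes a calmodulin-like protein and AT4G27280 a small EF-hand protein, both of which bind calcium, whose cytosolic level rises transiently when plants meet wounding, touch, cold or other stress. Such early transcripts are known for short lives, so that their levels can follow a stimulus both up and down. The annotation used here gave no symbol for AT4G27280, AT4G29780 or AT1G19020.

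All plants were Col-0, the common laboratory accession, aged 16 days. They received UV-B at 1.18 W/m2 for 15 min, from 3 h into a light period of 16 h. Shoots and roots were sampled at 0.25, 0.5, 1, 3, 6, 12 and 24 h, with 2 arrays for each of the 14 groups, which makes 28 arrays. Whether the 2 arrays of a group stand for separate cultures is not stated, and p-values here reflect only how far such arrays differ, which may be technical. No array of unexposed plants was analysed here, so levels before the pulse are unknown. Time after the pulse and hour of the day cannot be told apart between most times, while 24 h falls at about the hour of day of the pulse. In these bulk tissues, fewer cells that hold a transcript and less transcript per cell cannot be told apart.

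Each value is a signal intensity, a probe set's brightness on a linear scale set to a common mean on every array. The median signal was 36.7 to 39.0 on shoot arrays and 44.3 to 47.4 on root arrays, and log2 signals of the 2 arrays of a group correlated at 0.978 to 0.994 across probe sets. The tissue labels were checked on markers. The 4 of 10 listed shoot markers that the annotation names (RCA, PSAN, LHCB4.1 and LHCB4.2, which serve photosynthesis) summed to 12147 to 23723 in shoots and 252 to 509 in roots. The 2 of 10 listed root markers, PYK10 and the peroxidase AT4G30170, summed to 281 to 1475 in shoots and 4329 to 5069 in roots, and AT4G30170 stood at 0.640 to 14.8 in shoots. All 5 genes passed the filter on low signals, which asked for a signal above the array's median on at least 2 arrays. STZ, AT4G27280 and AT1G19020 were above the median on 28 of 28 arrays, CML38 on 19 and AT4G29780 on 15.

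STZ was highest at 1 h in shoots and at 0.25 h in roots. In shoots its signals were 1544 and 1591 at 0.25 h, 1024 and 939 at 0.5 h, 1651 and 1794 at 1 h, 919 and 808 at 3 h, 171 and 209 at 6 h, 46.9 and 53.6 at 12 h, and 41.7 and 43.2 at 24 h. In roots they were 918 and 1161 at 0.25 h, 935 and 687 at 0.5 h, 378 and 387 at 1 h, 212 and 285 at 3 h, 227 and 233 at 6 h, 97.1 and 100.05 at 12 h, and 134 and 131 at 24 h. The shoot series dipped at 0.5 h and stood high again at 1 h, with no overlap between neighbouring times, while in roots the arrays at 0.5 and 0.25 h overlapped, as did those at 6 and 3 h. Shoots at 1 h and at 0.25 h were the highest of the 14 groups and shoots at 12 and 24 h the lowest, so the shoots held both ends of the range of STZ.

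CML38 followed a like course on a lower part of the array's scale. In shoots its signals were 160 and 200 at 0.25 h, 282 and 210 at 0.5 h, 398 and 395 at 1 h, 137 and 134 at 3 h, 53.8 and 55.3 at 6 h, 11.1 and 12.7 at 12 h, and 11.5 and 9.11 at 24 h. In roots they were 131 and 134 at 0.25 h, 124 and 95.5 at 0.5 h, 56.9 and 64.9 at 1 h, 60.4 and 58.1 at 3 h, 38.6 and 45.9 at 6 h, 37.0 and 24.7 at 12 h, and 22.8 and 21.8 at 24 h. Shoots climbed over the first hour without the dip at 0.5 h seen in STZ, and roots were highest in the earliest sample. The shoot signals at 12 and 24 h overlapped and lay near 9.58, the 25th percentile of all signals, where the array resolves little.

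AT4G27280, the other calcium-binding protein, had the dip and second rise of STZ in shoots. There its signals were 2748 and 2423 at 0.25 h, 1505 and 1911 at 0.5 h, 3438 and 4983 at 1 h, 1153 and 1080 at 3 h, 303 and 345 at 6 h, 57.5 and 87.6 at 12 h, and 174 and 181 at 24 h. In roots they were 1272 and 1184 at 0.25 h, 858 and 1042 at 0.5 h, 384 and 339 at 1 h, 176 and 212 at 3 h, 258 and 257 at 6 h, 181 and 178 at 12 h, and 302 and 242 at 24 h. The arrays of neighbouring times did not overlap in either tissue. Its lowest group was shoots at 12 h, and both tissues stood higher again at 24 h.

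AT4G29780 was highest in the earliest sample of both tissues and fell sooner than the others in shoots. Its shoot signals were 548 and 526 at 0.25 h, 245 and 178 at 0.5 h, 172 and 224 at 1 h, 99.0 and 62.6 at 3 h, 36.1 and 43.1 at 6 h, 13.7 and 15.4 at 12 h, and 22.9 and 21.0 at 24 h. Its root signals were 216 and 214 at 0.25 h, 134 and 142 at 0.5 h, 50.5 and 49.1 at 1 h, 32.0 and 32.5 at 3 h, 21.4 and 19.9 at 6 h, 24.2 and 27.0 at 12 h, and 30.6 and 27.8 at 24 h. In shoots the arrays at 1 and 0.5 h overlapped, and no other neighbouring times of either tissue did.

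AT1G19020 was the latest of the 5 genes. In shoots its signals were 584 and 476 at 0.25 h, 1083 and 915 at 0.5 h, 1298 and 1246 at 1 h, 2114 and 1606 at 3 h, 742 and 771 at 6 h, 79.4 and 84.2 at 12 h, and 39.3 and 44.7 at 24 h. In roots they were 791 and 725 at 0.25 h, 1105 and 1167 at 0.5 h, 576 and 506 at 1 h, 733 and 687 at 3 h, 394 and 448 at 6 h, 190 and 190 at 12 h, and 460 and 448 at 24 h. The shoot signals climbed at each sample up to 3 h and then dropped, whereas the root signals were higher than in the sample before at 0.5, 3 and 24 h and lower at 1, 6 and 12 h. Neighbouring times did not overlap in either tissue.

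**Figure D1:**
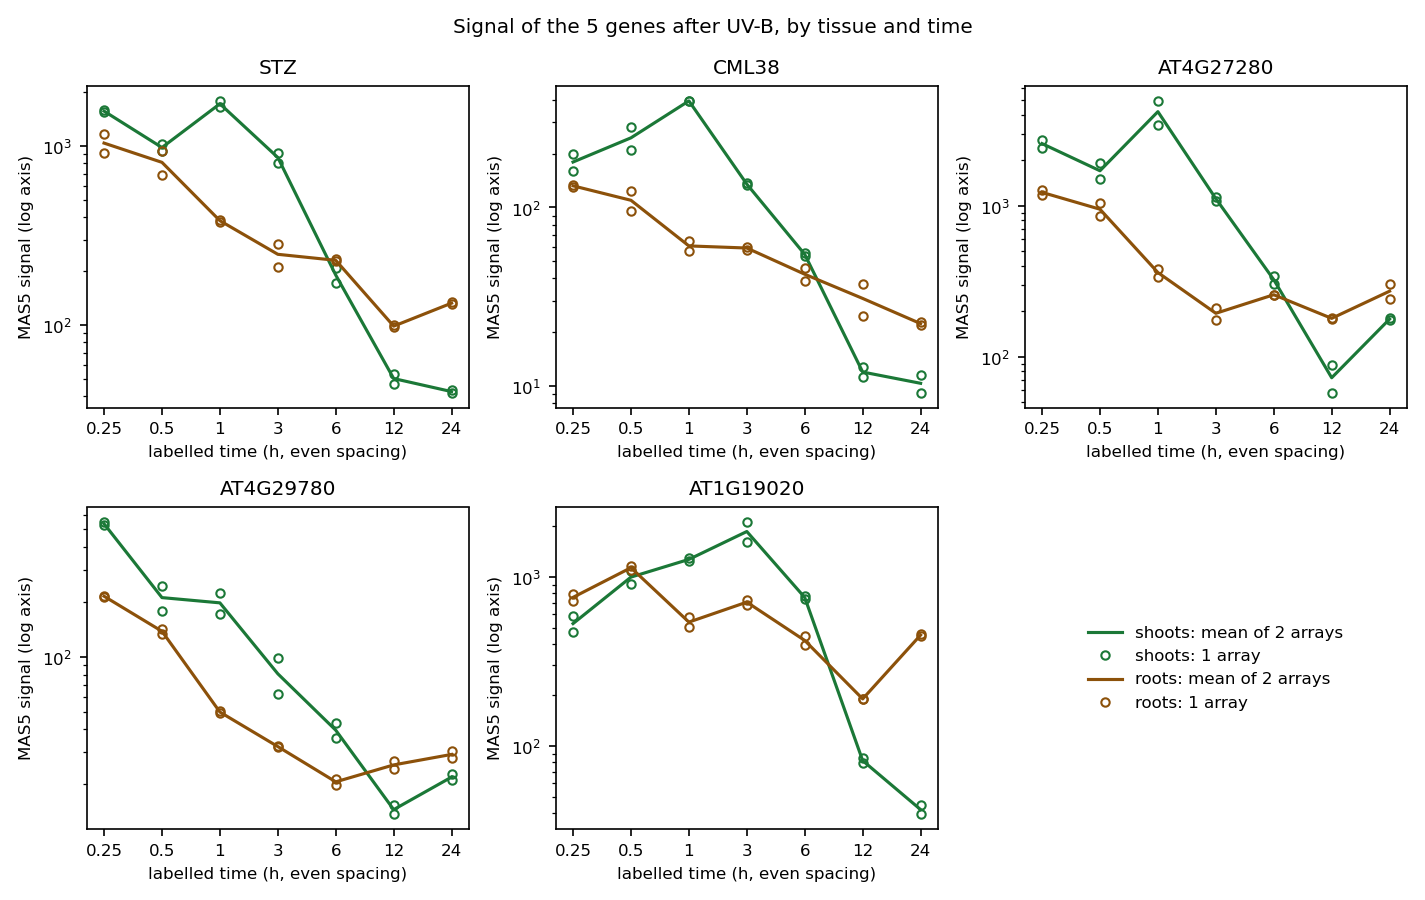
Signal of each gene by labelled time (h, evenly spaced samples), with signals on log axes, in shoots and in roots. Points are single arrays and lines join the means of 2 arrays. The shoot lines lie above the root lines at 1 and 3 h and below them at 12 and 24 h for all 5 genes.

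The time of the highest mean differed between the tissues for 4 of the 5 genes, for STZ by a small margin. Mean signals of STZ, CML38 and AT4G27280 were highest at 1 h in shoots and at 0.25 h in roots, the first sample taken, so that no earlier root peak could be seen. In shoots STZ already stood at 91.0% of its peak at 0.25 h. Its log2 change from 0.25 to 1 h was 0.13 ± 0.14 (SE), so its shoot peak is not clearly set apart from 0.25 h. AT1G19020 peaked at 3 h in shoots and at 0.5 h in roots, and AT4G29780 at 0.25 h in both. The fall was timed as the first sample after the peak with a mean under 50% of it. All 5 genes had fallen by 1 h in roots, though AT1G19020 was back at 62.5% of its peak at 3 h. In shoots AT4G29780 had fallen by 0.5 h, CML38 and AT4G27280 by 3 h, and STZ and AT1G19020 by 6 h.

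A single array set the time of 2 of these falls. STZ in shoots stood at 50.1% of its peak at 3 h, and its fall was timed at 3 h without the first array of shoots at 1 h or the first array of shoots at 3 h. AT1G19020 in roots fell at 6 h without the second array of roots at 1 h. The peak times were the same under each of the other normalizations and array omissions tried.

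The depth of the fall was greater in shoots for each gene, which is part of what they were picked for. The peak mean over the lowest mean was 40.6 in shoots and 10.5 in roots for STZ, 38.4 and 5.93 for CML38, 58.1 and 6.84 for AT4G27280, 36.9 and 10.4 for AT4G29780, and 44.3 in shoots and 5.98 in roots for AT1G19020. At 24 h, shoots held 2.26% to 4.22% of the peak, and roots held 12.8% to 39.9%. The gene with the most left in roots, AT1G19020 at 39.9%, was the one with the least left in shoots at 2.26%.

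**Figure D2:**
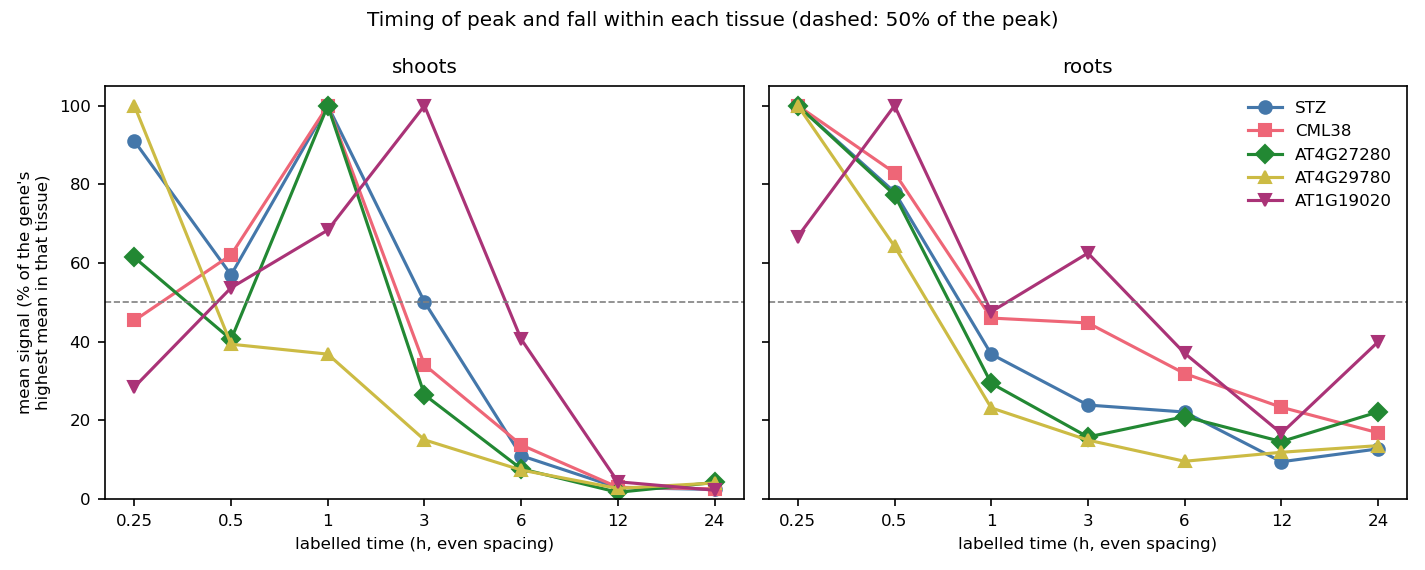
Mean signal as a percentage of the gene's own peak in that tissue, by time (h, evenly spaced samples), shoots and roots, with the peak of each gene at 100%. In roots all 5 genes are under 50% at 1 h, and in shoots only AT4G29780 is.

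Between 0.5 and 1 h STZ, CML38 and AT4G27280 were higher in shoots and lower in roots, AT4G29780 was lower in roots only, and the shoot change of AT1G19020 depended on the setting. In shoots, 4 of 5 were higher at 1 h and none lower by limma at an adjusted p under 0.05. Of all 14806 probe sets tested, 10.1% were higher, 11.5% lower and so 21.6% called in either direction. Of the calcium-binding proteins, AT4G27280 changed by a log2 of 1.28 ± 0.17 (SE; adjusted p = 1.43e-05) and CML38 by 0.68 ± 0.15 (adjusted p = 0.00200). STZ changed by 0.81 ± 0.14 (adjusted p = 1.88e-04). The change of AT1G19020, 0.35 ± 0.12 (adjusted p = 0.0366), was lost under 5 other settings and on leaving out either array of 1 h or the second array of 0.5 h, with adjusted p up to 0.266. AT4G29780 differed by -0.09 ± 0.16 (adjusted p = 0.744), with a 95% interval of -0.41 to 0.24. The first shoot array at 0.5 h had the highest summed root markers of all shoot arrays, 1475, against 572 on the second. Nearly all of that sum was PYK10 at 1460, with AT4G30170 at 14.8. On root arrays PYK10 stood at 3150 to 3799 and AT4G30170 at 1092 to 1632. The summed root markers in shoots at 1 h were 427 and 371. The part of these markers in the shoot changes was not tested, and without that first array STZ, CML38 and AT4G27280 were still called.

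In roots, all 5 genes were lower at 1 h than at 0.5 h. Of all probe sets 4.16% were lower, 3.19% higher and 7.35% called in either direction. The log2 change was -1.37 ± 0.17 for AT4G27280 (adjusted p = 1.53e-05), -1.31 ± 0.16 for AT4G29780 (adjusted p = 5.28e-06) and -1.06 ± 0.12 for AT1G19020 (adjusted p = 2.49e-06). STZ changed by -1.05 ± 0.14 (adjusted p = 2.04e-05) and CML38 by -0.75 ± 0.15 (adjusted p = 0.00189). Without the first root array of 0.5 h the adjusted p of CML38 was 0.0676, while the other 4 genes kept their calls under every setting and omission tried. Summed shoot markers in roots were 346 and 338 at 1 h, against 498 and 429 at 0.5 h, and their part in the result was not tested.

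The difference between the tissues in this step was itself tested. The log2 change in shoots minus that in roots was 2.65 ± 0.24 for AT4G27280 (adjusted p = 2.81e-07), 1.85 ± 0.19 for STZ (adjusted p = 1.19e-06) and 1.43 ± 0.21 for CML38 (adjusted p = 7.04e-05). It was 1.41 ± 0.17 for AT1G19020 (adjusted p = 4.59e-06) and 1.23 ± 0.22 for AT4G29780 (adjusted p = 6.22e-04). All 5 genes were called higher, against 5.15% of all probe sets called higher, 6.01% lower and 11.2% in either direction, and each gene kept its call under every setting and omission tried. The median over the 5 genes was 1.43, and over all probe sets 0.01. Centring each array on its median moved the split of all probe sets called from 762 higher and 890 lower to 615 and 1094; for the step in roots alone it moved 472 higher and 616 lower to 605 and 515.

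Between 1 and 3 h AT1G19020 parted from the other genes in shoots. AT4G27280, CML38, AT4G29780 and STZ were lower at 3 h, and AT1G19020 was higher. The 4 lower calls compare with 22.6% of all probe sets and the single higher call with 22.4%, so that 45.1% were called in either direction. The log2 changes were -1.88 ± 0.17 for AT4G27280 (adjusted p = 2.00e-08), -1.49 ± 0.15 for CML38 (adjusted p = 4.58e-08), -1.22 ± 0.16 for AT4G29780 (adjusted p = 1.52e-06) and -0.99 ± 0.14 for STZ (adjusted p = 4.83e-06). AT1G19020 changed by 0.53 ± 0.12 (adjusted p = 8.52e-04). All 5 calls held under every setting and omission.

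In roots, 3 genes were called lower at 3 h than at 1 h, against 9.48% of probe sets, and 1 higher, against 9.34%, with 18.8% called in either direction. AT4G27280 changed by -0.87 ± 0.17 (adjusted p = 0.00100), which held in every setting. STZ changed by -0.62 ± 0.14 (adjusted p = 0.00272), and its adjusted p was 0.0962 without the first array of 3 h. AT4G29780 changed by -0.51 ± 0.16 (adjusted p = 0.0252), and that call was lost on leaving out any 1 of the 4 arrays compared, with adjusted p of 0.102 to 0.116, and with a larger pseudocount, at 0.0631. AT1G19020 changed by 0.39 ± 0.12 (adjusted p = 0.0234); its adjusted p was 0.222 without the second array of 1 h, 0.155 without the first array of 3 h and 0.0679 without the second. CML38 differed by -0.03 ± 0.15 (adjusted p = 0.921), with a 95% interval of -0.34 to 0.28.

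The step from 1 to 3 h differed between the tissues for 3 of 5 genes, each lower in the shoots minus roots difference, against 16.7% of all probe sets lower, 16.6% higher and 33.3% in either direction. The difference was -1.46 ± 0.21 for CML38 (adjusted p = 1.89e-05) and -1.01 ± 0.24 for AT4G27280 (adjusted p = 0.00292). For AT4G29780 it was -0.71 ± 0.22 (adjusted p = 0.0162), and the call was lost without the second shoot array of 1 h (adjusted p = 0.101) or of 3 h (0.133). For STZ it was -0.37 ± 0.19 (adjusted p = 0.152), with an interval of -0.78 to 0.03, and it was called without the first root array of 3 h (adjusted p = 0.0378). AT1G19020, higher at 3 h in both tissues, differed by 0.14 ± 0.17 (adjusted p = 0.543; interval -0.20 to 0.49).

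Between 3 and 6 h all 5 genes were lower in shoots, against 18.3% of probe sets lower, 20.9% higher and 39.1% in either direction. STZ had the largest change of the 5, a log2 of -2.13 ± 0.14 (adjusted p = 3.61e-10). AT4G27280 changed by -1.76 ± 0.17 (adjusted p = 1.32e-07), AT1G19020 by -1.27 ± 0.12 (adjusted p = 4.13e-08), CML38 by -1.18 ± 0.15 (adjusted p = 2.48e-06) and AT4G29780 by -0.85 ± 0.16 (adjusted p = 1.80e-04). These 5 calls held under every setting and omission.

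In roots the same step called 2 of 5 genes lower, against 7.33% of probe sets lower, 6.17% higher and 13.5% in either direction. AT1G19020 changed by -0.74 ± 0.12 (adjusted p = 1.63e-04), which held throughout. AT4G29780 changed by -0.47 ± 0.16 (adjusted p = 0.0488), a call that was kept under only 11 of 39 other settings and omissions, with adjusted p up to 0.219. CML38 differed by -0.41 ± 0.15 (adjusted p = 0.0704), AT4G27280 by 0.40 ± 0.17 (adjusted p = 0.137) and STZ by -0.09 ± 0.14 (adjusted p = 0.734; interval -0.38 to 0.19). AT4G27280 was called with the roots fitted alone (adjusted p = 0.0243), and CML38 without either shoot array of 0.5 h or either root array of 12 h (adjusted p of 0.0456 to 0.0491).

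The tissues differed in this step for 4 of 5 genes, all lower in shoots minus roots, against 10.9% of probe sets lower, 12.7% higher and 23.6% in either direction. The difference was -2.15 ± 0.24 for AT4G27280 (adjusted p = 3.02e-06) and -2.04 ± 0.19 for STZ (adjusted p = 3.12e-07), both held in every setting. It was -0.76 ± 0.21 for CML38 (adjusted p = 0.0117), with an adjusted p of 0.0598 without the second root array of 6 h. For AT1G19020 it was -0.53 ± 0.17 (adjusted p = 0.0241), and the adjusted p was 0.146 under quantile normalization of all arrays. That call was also lost without the first shoot array of 3 h (0.168), the second root array of 3 h (0.0865), the first shoot array of 6 h (0.0708) or the second root array of 6 h (0.112). AT4G29780 differed by -0.38 ± 0.22 (adjusted p = 0.220; interval -0.84 to 0.07), and was called without the second shoot array of 3 h (adjusted p = 0.0252).

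**Figure D3:**
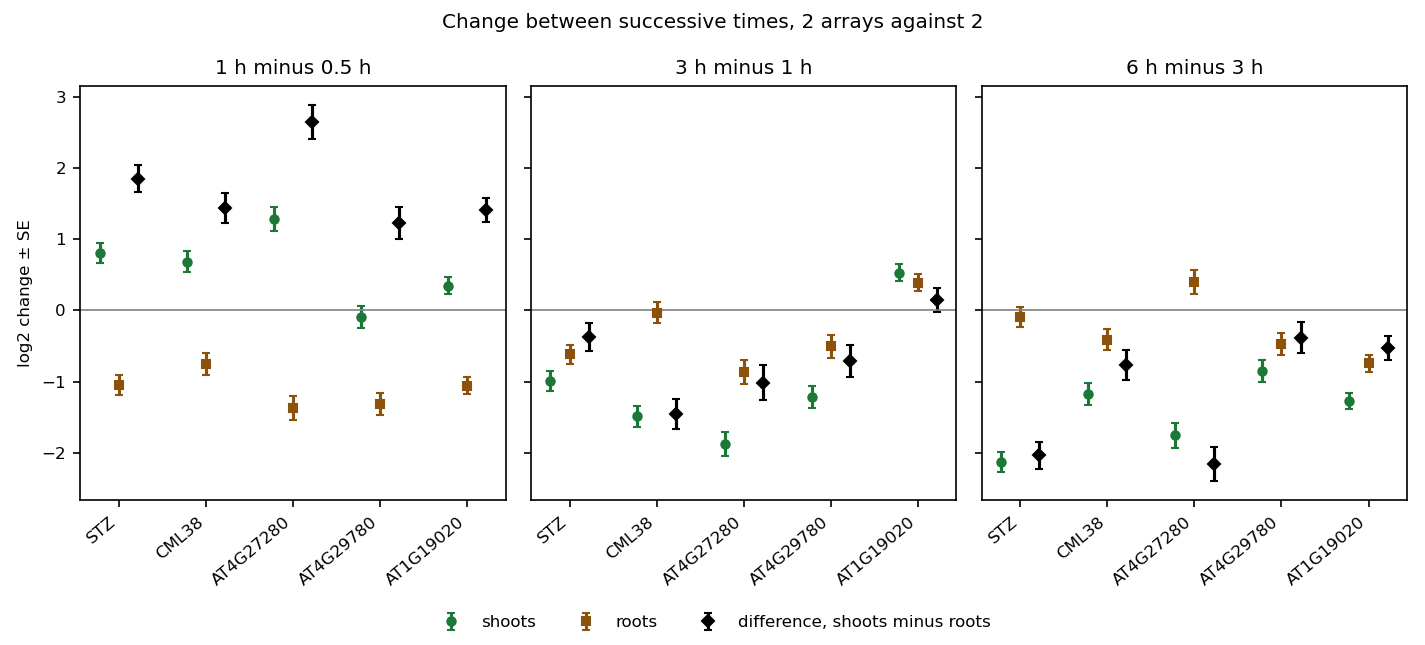
Log2 change between successive times (1 h minus 0.5 h, 3 h minus 1 h, 6 h minus 3 h) for each gene in shoots and in roots, and the difference between the tissues (shoots minus roots); bars are SE from limma, 2 arrays against 2. In the first panel 4 of the 5 shoot changes are above 0 and all 5 root changes below it.

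From 6 h on, the values are a description. The log2 change from 6 to 12 h (12 h minus 6 h) was -1.74 ± 0.14 in shoots and -1.15 ± 0.14 in roots for STZ, and -3.07 ± 0.12 in shoots and -1.11 ± 0.12 in roots for AT1G19020. All 5 genes were lower in shoots at 12 h than at 6 h with no overlap of arrays, as were 38.1% of all probe sets, while 38.4% were higher. In roots 4 of 5 were lower and AT4G29780 was higher, against 27.7% of probe sets lower and 32.7% higher.

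From 12 to 24 h the tissues parted for AT1G19020, whose log2 change (24 h minus 12 h) was -0.83 ± 0.12 in shoots and 1.22 ± 0.12 in roots. AT4G27280 stood higher at 24 h in both, by 1.21 ± 0.17 in shoots and 0.57 ± 0.17 in roots. In roots 4 of 5 genes were higher at 24 h with no overlap, against 28% of probe sets, and CML38 was lower, against 38.2%. In shoots AT4G27280 and AT4G29780 were higher and STZ and AT1G19020 lower, against 34.8% of probe sets higher and 35.4% lower. AT4G27280 in shoots had a signal of 178 ± 4.59 at 24 h, against 72.5 ± 21.3 at 12 h (SD, n = 2).

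Set side by side at each time, the 2 tissues did not overlap for any of the 5 genes, but non-overlap was common on these arrays. At 1 h all 5 genes were higher in shoots, as were 31.8% of probe sets, while 57.9% were lower. At 3 h all 5 were higher again, against 33.5% of probe sets higher and 56.4% lower. The mean signal in shoots over that in roots at 1 h was 11.7 for AT4G27280, 6.51 for CML38, 4.50 for STZ, 3.97 for AT4G29780 and 2.35 for AT1G19020. At 12 and 24 h all 5 were lower in shoots, against 58.1% of probe sets lower and 29.7% higher at 12 h, and 55.7% lower and 32.3% higher at 24 h. The ratio at 24 h was 0.0925 for AT1G19020, 0.320 for STZ, 0.463 for CML38, 0.653 for AT4G27280 and 0.752 for AT4G29780.

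At the remaining times 4 of 5 genes were higher in shoots and 1 lower. The lower one was AT1G19020 at 0.25 and 0.5 h, with ratios of 0.699 and 0.880, and STZ at 6 h, with 0.827. The shares of all probe sets higher in shoots at 0.25, 0.5 and 6 h were 30.5%, 30.4% and 36.6%, and the shares lower were 56.5%, 59.4% and 51.6%. For STZ the direction before 1 h depended on the scaling: with all arrays quantile normalized its ratio at 0.25 h was 1.097 in place of 1.51, and at 0.5 h 0.967 in place of 1.21, with overlapping arrays at both times. The other 33 comparisons kept their direction and did not overlap under that scaling.

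Within a tissue the 5 genes followed each other over the 7 times, as genes picked for one pattern must. On log2 means, STZ and CML38 correlated at 0.978 in shoots and 0.965 in roots, and STZ and AT1G19020 at 0.859 and 0.830. AT4G29780 and AT1G19020, the earliest and the latest to peak in shoots, were least alike, at 0.626 in shoots and 0.694 in roots. These coefficients describe 7 points that share the same arrays.

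Across the array, the genes most like each of the 5 were ranked by the lower of the shoot and the root correlation over the 7 times, among 7913 other probe sets with 1 gene. Nearest to STZ were AT1G32920 at 0.987, CML38 at 0.965 and AT1G05575 at 0.963. AT1G32920, also nearest to CML38 at 0.971, had mean signals in shoots of 1351, 1233, 1378, 1135, 424, 100.1 and 110 from 0.25 to 24 h, with SDs of 5.93 to 170 (n = 2). In roots AT1G32920 had 714, 740, 403, 356, 325, 211 and 229 over the same times. Its root mean at 1 h was thus still above 50% of its peak, unlike that of STZ.

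Nearest to AT4G27280 were AT3G25600 at 0.970 and AT3G07790 at 0.965. Nearest to AT4G29780 were AT5G17350 at 0.946, AT3G07790 at 0.939 and ORA47, an AP2/ERF transcription factor of jasmonate responses, at 0.939. ORA47 had 49.7 ± 14.5 in shoots at 0.5 h, against 160 ± 32.4 at 0.25 h (SD, n = 2), a drop as early as that of AT4G29780. In roots ORA47 was dim throughout, between 8.81 and 26.2. AT1G19020 had the loosest neighbours, AT1G72900 at 0.924 and AR781 at 0.917. AT1G72900 was also late in shoots, with 215 ± 76.0 at 0.25 h, 540 ± 6.72 at 1 h and 509 ± 0.371 at 3 h (SD, n = 2).

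Genes of the same families and of early stress signalling were taken from 4 lists of 107 genes, of which 31 were named by a probe set on this array and 20 passed the filter. The lists were chosen with earlier results of these data known. A gene could also pass the filter only through the groups where it was high. Counts of list genes beside the shares of all probe sets are therefore a description and not a test of the lists. The calmodulin-like and EF-hand list, without CML38 and AT4G27280, had 11 genes that passed out of 23. Of these, 5 were higher and 1 lower in shoots at 1 h against 0.5 h, where 10.1% and 11.5% of all probe sets were called. In roots none was higher and 6 were lower, where the shares were 3.19% and 4.16%. The difference between tissues was called higher for 6 of the 11 and lower for 1, where 5.15% and 6.01% of all probe sets were called. The median log2 change of the list was 0.36 in shoots and -0.69 in roots, and that of all probe sets was 0.01 in shoots and 0.00 in roots.

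All 5 genes of the list that were higher in shoots in this step were among the 6 lower in roots, where the other was CML42, named after its values were seen. CML37, a close relative of CML38, changed by 1.66 ± 0.19 in shoots (adjusted p = 1.76e-06) and by -1.80 ± 0.19 in roots (adjusted p = 1.27e-06). The EF-hand genes AT3G01830 and AT5G39670 changed by 1.43 and 1.03 in shoots and by -1.38 and -1.17 in roots, and AT1G21550 and AT2G46600 (the second also named after its values were seen) by 1.56 and 0.53 in shoots and by -0.89 and -0.76 in roots. CML41 was lower in shoots, with a log2 change of -1.11 ± 0.18 (adjusted p = 9.48e-05). AT1G76640, the next gene to CML38 on its chromosome in the RefSeq annotation, stayed at or under a signal of 36.0 and did not pass the filter.

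Later, the shoot changes of this list were spread over both directions. From 1 to 3 h, 4 of 11 were called higher and 4 lower, where 22.4% and 22.6% of all probe sets were. From 3 to 6 h 2 were higher and 4 lower, where the shares of all probe sets were 20.9% and 18.3%, so these counts do not stand far from the background. CML37 was lower at both steps, with log2 changes of -0.49 ± 0.19 (adjusted p = 0.0395) and -1.09 ± 0.19 (adjusted p = 1.15e-04), as CML38 was. CML41 was instead called higher at both steps, and AT3G47480 at 3 h against 1 h only, since its log2 change of 1.08 ± 0.44 from 3 to 6 h did not pass the test (adjusted p = 0.0651). AT3G47480 had 580 ± 80.2 in shoots at 6 h and 25.3 ± 1.53 at 1 h, and CML41 had 277 ± 1.29 at 6 h and 13.98 ± 1.51 at 1 h (SD, n = 2).

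**Figure D4:**
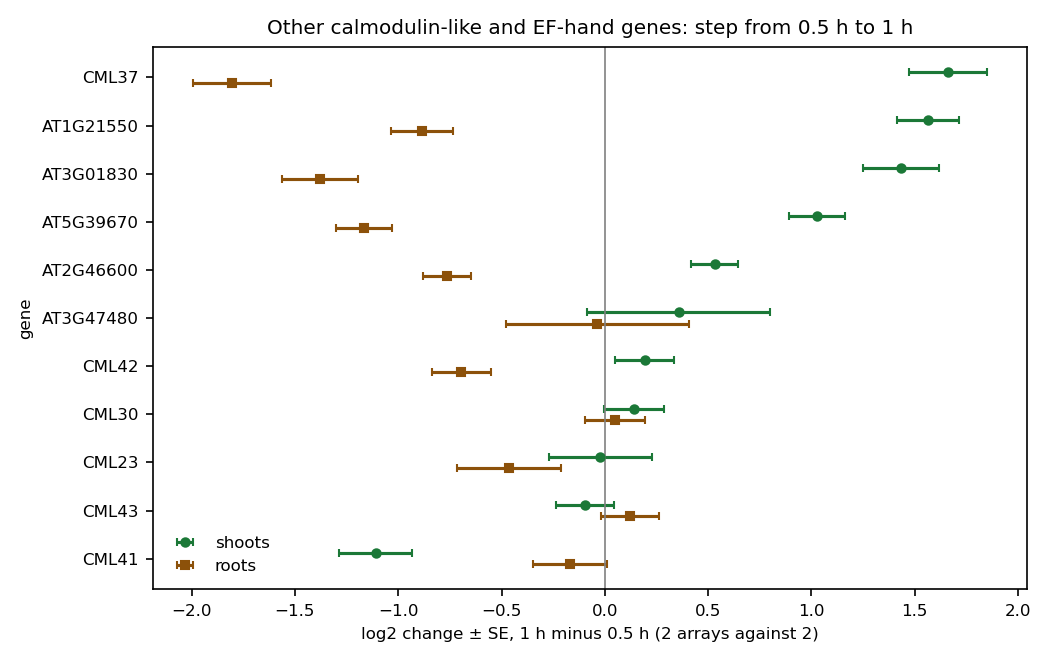
Log2 change at 1 h against 0.5 h in shoots (circles) and roots (squares) for the 11 other calmodulin-like and EF-hand genes that passed the filter; bars are SE from limma, 2 arrays against 2. CML37 lies at 1.66 in shoots and -1.80 in roots, and CML41 at -1.11 in shoots.

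The other lists kept few genes. Of the C2H2 zinc finger list, 2 of 17 passed, AT2G28200 and AT2G28710, and neither was called between 0.5 and 1 h in either tissue. AT2G28200 was lower in shoots at 3 h than at 1 h, with a log2 change of -1.72 ± 0.13 (adjusted p = 6.23e-10), and stood at 71.6 ± 12.2 in shoots at 24 h, against 30.3 ± 1.87 at 12 h (SD, n = 2). Of the early stress regulators, 4 of 40 passed. In shoots 3 of these were lower at 1 h than at 0.5 h and none higher, where 11.5% of all probe sets were lower and 10.1% higher.

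WRKY6, WRKY53 and WRKY22, transcription factors of defence and senescence, were those 3. WRKY6 changed by -1.99 ± 0.14 from 0.5 to 1 h in shoots (adjusted p = 4.08e-09) and by 3.45 ± 0.14 from 1 to 3 h (adjusted p = 4.62e-14), with mean signals of 62.3, 8.66 and 187 at 0.5, 1 and 3 h. WRKY53 changed by -0.90 ± 0.20 in shoots (adjusted p = 0.00259) and by -1.98 ± 0.20 in roots (adjusted p = 1.12e-06) from 0.5 to 1 h. Of the signalling and turnover list, 3 of 27 passed, all U-box ubiquitin ligases. From 0.5 to 1 h in shoots PUB22 changed by -1.18 ± 0.13 (adjusted p = 6.68e-07), PUB23 by -1.42 ± 0.19 (adjusted p = 1.22e-05) and PUB24 by 0.52 ± 0.15 (adjusted p = 0.0163). None of the 3 was called in that step in roots.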

How the data were processed

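The deposited values were signal intensities, 1 per probe set and array, computed by the authors with MAS5, per the submitters' processing notes; its version and settings are not given in the sources used here. On every array the mean signal without the lowest and highest 2% was 100.007 to 100.010, so the authors had scaled the arrays to a common level. The 64 control probe sets of 22810 were left out. Signals were analysed here as log2(signal + 9.58), 9.58 being the 25th percentile of all signals, which understates changes of low signals. A probe set was kept, as 14806 of 22746 were, if 2 or more arrays had it above their own median. Of all probe sets, 13513 named 1 gene, 503 several and 8730 none, and of the first 13436 matched a RefSeq locus. A model with 14 group means on all 28 arrays was fitted with limma (version 3.58.1, under R 4.3.3 and with statmod 1.5.0), with its trend and robust settings on, 14 residual degrees of freedom and Benjamini-Hochberg adjustment over all probe sets kept, at 0.05. The script was tested on simulated data. The 5 genes and all lists were chosen with earlier results of these data known. The list genes named were, per list and tissue, the 3 that passed the filter with the largest F over the tested steps. The genes most like STZ were ranked to 6 and those most like each other gene to 3. Alternatives were other pseudocounts, normalizations, filters, fits per tissue, blocks and the omission of each array. Replicate numbers were taken not to pair arrays: deviations of same-numbered arrays correlated over 0.1 in 2 of 21 pairs of shoot groups and 1 of 21 pairs of root groups. The number of arrays limits the precision.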

Additional observations from a re-analysis of the deposited data

Results flagged for a closer look

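The following changes differed between shoots and roots by limma's test of the difference itself (shoots minus roots, log2). From 0.5 to 1 h the differences were 1.85 for STZ, 1.43 for CML38, 2.65 for AT4G27280, 1.23 for AT4G29780 and 1.41 for AT1G19020. From 1 to 3 h they were -1.46 for CML38, -1.01 for AT4G27280 and -0.71 for AT4G29780, the last of which lost its call without some single arrays. From 3 to 6 h they were -2.04 for STZ, -0.76 for CML38, -2.15 for AT4G27280 and -0.53 for AT1G19020. In this step CML38 lost its call without the second root array of 6 h. AT1G19020 lost its call without some single arrays and under quantile normalization of all arrays.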

How the results depend on the processing

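Of 1740 recomputed changes of the 5 genes, 1674 kept their direction and their side of the threshold, 54 lost a call, 7 gained one and 5 turned. Most of these recomputed changes came from leaving out 1 array. An array outside the groups compared leaves the log2 change itself as it was and alters only its adjusted p. The share that kept their call therefore overstates how stable the changes were. The 5 that turned were uncalled in the reported fit and ranged, over omissions of single arrays, from -0.31 to 0.13 for AT4G29780 in shoots from 0.5 to 1 h (0.13 without the first array of 0.5 h, 0.0952 without the first of 1 h), from -0.114 to 0.0503 for CML38 in roots from 1 to 3 h (0.0503 without the second array of 1 h), from -0.0542 to 0.34 for the tissue difference of AT1G19020 from 1 to 3 h (-0.0542 without the first shoot array of 3 h), and from -0.30 to 0.11 for STZ in roots from 3 to 6 h (0.11 without the second array of 3 h). Of the shoots over roots ratios, that of STZ at 0.5 h turned, to 0.967 with all arrays quantile normalized. In roots from 3 to 6 h, 1 gene in place of 2 was called with the pseudocount at the median, under both quantile normalizations, with centring, with no filter, without the trend and robust options and under the replicate block, where AT4G29780 had an adjusted p of 0.0628; the block changed no other call of the 5 genes. On leaving out single arrays, 1 to 3 genes were called there, 1 to 4 in roots from 1 to 3 h and 2 to 5 for the tissue difference from 3 to 6 h. Probe sets called then ranged from 1905 to 3497 (shoots) and 546 to 1214 (roots) from 0.5 to 1 h, 987 to 1930 for their difference, 1423 to 3033 in roots from 1 to 3 h and 817 to 2238 in roots from 3 to 6 h. Fall times ranged from 3 to 6 h for STZ in shoots and from 1 to 6 h for AT1G19020 in roots. With an array left out, the lone array is assumed to vary like the other groups. The random block of shoots with roots had a consensus correlation of 0.00164. Signals near the 25th percentile, as for CML38 in shoots at 12 and 24 h, limit what can be said of the lowest levels. The cause of these changes was not tested.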
